A study of Mus musculus with 2 samples.

Results

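The S100 calcium-binding proteins were examined as a family of 10 genes, *S100a1*, *S100a3*, *S100a4*, *S100a6*, *S100a8*, *S100a10*, *S100a11*, *S100a13*, *S100a16* and *S100b*, taken by symbol from a table of read counts. These 10 genes were among 17 S100 genes and 24421 rows of the table. Transcripts were sequenced in 1 library from primary chondrocytes, obtained from newborn mouse rib cartilage with collagenase and kept for no more than 2 passages, and 1 library of primary dermal fibroblasts, obtained from newborn mouse dorsal skin, also with collagenase. The fibroblasts served the study as the control cell type in a search for chondrocyte enhancers of *Sox9*. The animals carried no named allele or treatment, their sex was not considered, and the sources used here do not say how many animals or whether pooled animals gave each library. The libraries held 18788599 and 17563724 counts. Levels are given as counts per 1000000 counts (CPM) after scaling by the trimmed mean of M values (TMM), and a fold is the ratio of these scaled counts with a 95% interval (Clopper-Pearson). Such intervals reflect counting error only. With a single library of each cell type, differences could not be checked in replicates and no p-value is given.

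S100 proteins are small intracellular proteins with paired EF-hand loops, and most of them work as dimers that expose a binding surface for target proteins when calcium rises. Some members also leave the cell and act on surface receptors. S100A1 and S100B are long-used markers of cartilage cells, and S100A4 is also known as fibroblast-specific protein.

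The markers of the labelled cell types stood on the side of their labels. All 12 chondrocyte markers were over 2-fold higher in the chondrocyte library, with a summed level of 104220 CPM in chondrocytes and 31.1 CPM in dermal fibroblasts. *Col2a1* was the most abundant of them in chondrocytes and *Sox9* in dermal fibroblasts, and *Col2a1*, *Matn1* and *Snorc* (listed under an older symbol) had 0 counts in dermal fibroblasts. For each list, the most abundant gene is the one with the most counts, not divided by length. The order per kb of exon can differ. Of 10 fibroblast markers, 9 were over 2-fold higher in dermal fibroblasts, and *Lum* was the exception. Their summed level was 7544 CPM in chondrocytes and 51641 CPM in dermal fibroblasts, with *Col1a1* the most abundant and none at 0 in either library. Fibroblast markers were thus well above 0 in the chondrocyte library too. In such bulk samples, fewer cells of a type and less RNA per cell cannot be told apart.

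Of the 10 S100 genes, 3 (*S100b*, *S100a1* and *S100a8*) were over 2-fold higher in chondrocytes, 2 (*S100a4* and *S100a3*) were over 2-fold higher in dermal fibroblasts, and 5 lay within 2-fold. Among all 14291 genes with at least 10 counts in either library, 11.8% were over 2-fold higher in chondrocytes and 16.2% in dermal fibroblasts. By the whole interval, the fold was past 2 for *S100b* and *S100a1* in chondrocytes, against 7.21% of all such genes, and for *S100a4* in dermal fibroblasts, against 10.8%. With 10 members these counts stand on few genes. All 10 had at least 10 counts in a library, and their median log2 fold of chondrocytes over dermal fibroblasts was -0.14, beside -0.0035 over all 14291 genes.

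Summed over the 17 S100 genes, the family held 23674 counts in chondrocytes against 32185 in dermal fibroblasts, or 1321 CPM and 1748 CPM. The family sum was 1.32-fold higher in dermal fibroblasts and stayed higher there, by 1.22-fold to 1.45-fold, under the other scalings. Without *S100a4* the sums were 1183 CPM in chondrocytes and 1204 CPM in dermal fibroblasts, a ratio of 0.982. This ratio crossed equality with the scaling, from 0.894 with total counts to 1.07 relative to *Actb*, so that no direction is given for the family without *S100a4*. The 10 genes took 99.8% of the family counts in chondrocytes and 99.7% in dermal fibroblasts.

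**Figure D1:**
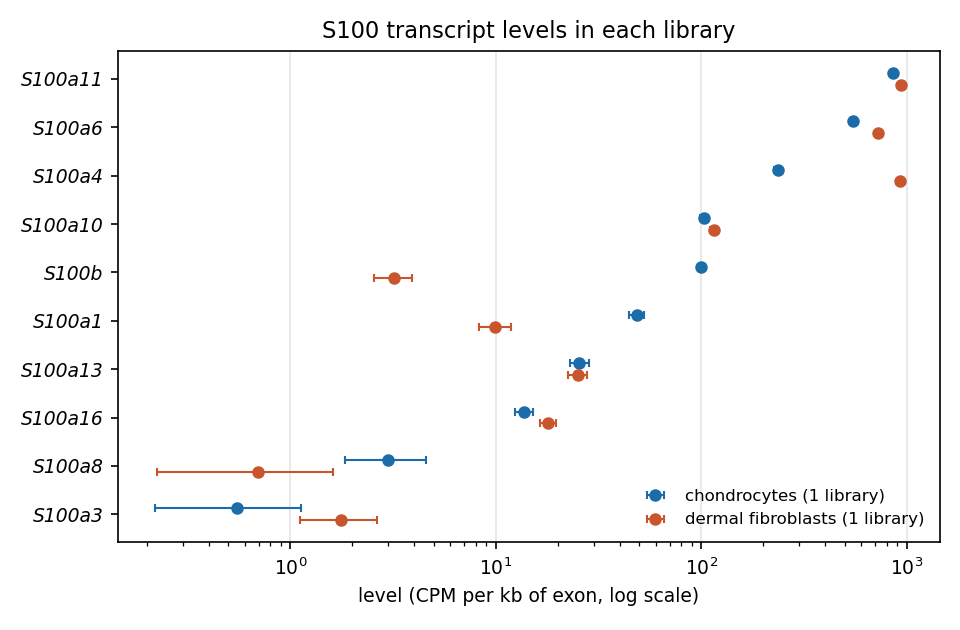
Level of each of the 10 S100 genes in CPM per kb of exon on a log axis, with 1 point for the chondrocyte library (blue) and 1 for the dermal fibroblast library (orange) and 95% Poisson counting intervals as bars. *S100b* stands at 99.9 in chondrocytes and 3.18 in dermal fibroblasts, and *S100a4* at 235 and 927.

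Levels were compared between genes per kb of exon. In chondrocytes the order from the highest level was *S100a11*, *S100a6*, *S100a4*, *S100a10*, *S100b*, *S100a1*, *S100a13*, *S100a16*, *S100a8* and *S100a3*, and only the counting intervals of the neighbours *S100a10* and *S100b* overlapped. In dermal fibroblasts it was *S100a11*, *S100a4*, *S100a6*, *S100a10*, *S100a13*, *S100a16*, *S100a1*, *S100b*, *S100a3* and *S100a8*, and the intervals of *S100a11* and *S100a4*, of *S100b* and *S100a3*, and of *S100a3* and *S100a8* overlapped. *S100b* thus held rank 5 of 10 in chondrocytes and rank 8 of 10 in dermal fibroblasts. *S100a11*, *S100a6*, *S100a4* and *S100a10*, the 4 genes with the highest level per kb in both libraries, gave 82.9% of the family counts in chondrocytes and 96.2% in dermal fibroblasts. In counts not divided by length, *S100b* (2657) stood above *S100a4* (2472) and *S100a10* (2236) in chondrocytes. Of the summed level per kb of the 10 genes, *S100a11* took 44.2% in chondrocytes and 33.8% in dermal fibroblasts, *S100a4* took 12.2% and 33.6%, and *S100b* took 5.17% and 0.115%. Per kb of coding sequence, *S100b* stood above *S100a4* and *S100a10* in chondrocytes, and *S100a6* stood above *S100a4* and *S100a11* in dermal fibroblasts, so the order among the abundant genes depends on the length used.

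**Figure D2:**
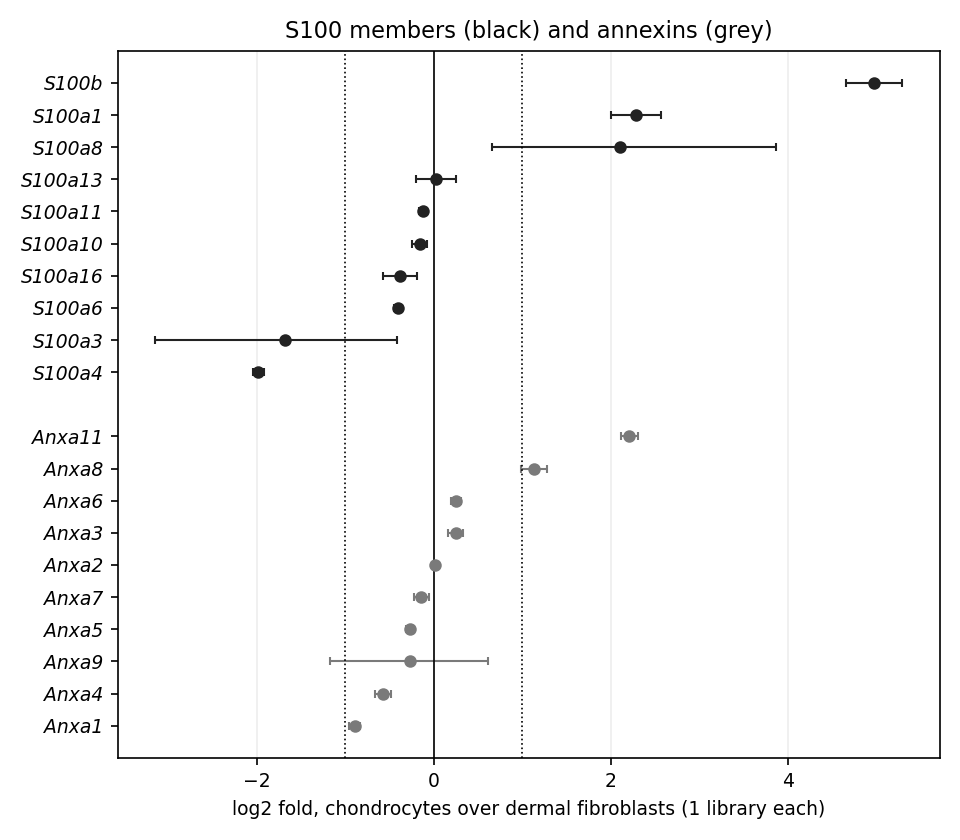
Log2 fold of chondrocytes over dermal fibroblasts for the 10 S100 genes (black) and the 10 annexin genes with at least 10 counts (grey), 1 library each, with 95% counting intervals as bars and dotted lines at 2-fold. *S100b* is at 4.97, *S100a4* at -1.98 and *Anxa11* at 2.21.

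Of the members known from cartilage, *S100b* had the largest fold. *S100b*, on chromosome 10 (chr10:76253836-76261319 in GRCm38), had 2657 counts in chondrocytes (148 CPM) against 87 in dermal fibroblasts (4.73 CPM). Its level was 31.4-fold higher in chondrocytes (interval 25.3 to 39.3), a fold above that of 99.4% of the 14291 genes. Among the 4340 genes with at least 1000 counts in either library, the 3 with the nearest log2 fold were *Pcolce2* (3142 counts against 100), *Sdk2* (3195 against 112) and *Sorbs2* (4287 against 152), a likeness over 2 libraries only. The genes on each side of *S100b* did not share its direction. *Prmt2* had 379 counts in chondrocytes against 556 in dermal fibroblasts, with a fold of 0.700 (interval 0.613 to 0.799), and *Dip2a* had 790 and 1438, with a fold of 0.564 (interval 0.517 to 0.616).

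*S100b* is also a marker of Schwann cells, melanocytes and fat cells, whose markers were therefore counted. Of 10 Schwann cell and glial markers, 1 was over 2-fold higher in chondrocytes and 5 in dermal fibroblasts. Their summed level was 290 CPM in chondrocytes and 358 CPM in dermal fibroblasts, and that of the markers other than the most abundant, *Pmp22*, was 47.2 CPM and 159.5 CPM. Most of these markers were thus lower in the library in which *S100b* was high. Of 8 melanocyte markers, 7 were over 2-fold higher in dermal fibroblasts, with 11.5 CPM in chondrocytes and 81.5 CPM in dermal fibroblasts, *Mitf* the most abundant, and *Dct* and *Tyrp1* at 0 in chondrocytes. *Sox10* is in both the glial and the melanocyte list. Of 8 adipocyte markers, 5 were over 2-fold higher in dermal fibroblasts and none in chondrocytes, with 553 CPM in chondrocytes and 3472 CPM in dermal fibroblasts and *Lpl* the most abundant. Without *Lpl* their sums were 224 CPM and 417 CPM. No Schwann cell, glial or adipocyte marker was at 0 in either library. All 3 lists had the higher summed level in dermal fibroblasts, and the part of these cell types in the level of *S100b* was not tested.

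*S100a1* codes for a protein that can pair with S100B and is also abundant in striated muscle, where its protein binds the ryanodine receptor. It had 602 counts in chondrocytes (33.6 CPM) against 127 in dermal fibroblasts (6.90 CPM). Its level was 4.87-fold higher in chondrocytes (interval 4.01 to 5.94), a fold above that of 96.0% of the 14291 genes. Both cartilage S100 genes were thus higher in the chondrocyte library, *S100b* by the larger fold. Per kb of exon, the level of *S100b* was 2.06 times that of *S100a1* in chondrocytes (interval 1.89 to 2.26) and 0.320 times in dermal fibroblasts (interval 0.241 to 0.424). Per kb of coding sequence these ratios were 4.51 and 0.700. The order of the pair was therefore reversed between the libraries by either length, while the size of the ratios depended on the length. Muscle markers were present in both libraries. Of 12 skeletal muscle markers, 5 were over 2-fold higher in chondrocytes and none in dermal fibroblasts, and none was at 0. Their summed level was 2151 CPM in chondrocytes and 1506 CPM in dermal fibroblasts. By counts, *Myh3* was the most abundant in chondrocytes and *Actc1* in dermal fibroblasts. Per kb of exon, *Actc1* stood above *Myh3* in chondrocytes too (251 against 70.6 CPM per kb). The part of the muscle markers in the level of *S100a1* was not tested. The ryanodine receptor gene *Ryr1* had 874 counts in chondrocytes against 657 in dermal fibroblasts, with a fold of 1.37 (interval 1.23 to 1.51).

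*S100a4*, whose protein binds non-muscle myosin heavy chain and is found in motile mesenchymal cells, was the abundant member on the fibroblast side. It had 2472 counts in chondrocytes (138 CPM) against 10019 in dermal fibroblasts (544 CPM). Its level was higher in dermal fibroblasts by 3.95-fold (interval 3.78 to 4.13). The chondrocyte library nevertheless held *S100a4* at 235 CPM per kb, which gave it rank 3 of the 10 genes there. The 3 genes with the nearest log2 fold among the 4340 genes with at least 1000 counts were *Fbln1* (454 counts against 1844), *Hmgcs1* (2362 against 9624) and *Abca7* (260 against 1048). *S100a4* is also known from macrophages. Of 11 macrophage markers, 4 were over 2-fold higher in dermal fibroblasts and none in chondrocytes, with 131 CPM in chondrocytes and 227 CPM in dermal fibroblasts, *Lyz2* the most abundant and none at 0. Of 7 endothelial markers, 6 were over 2-fold higher in dermal fibroblasts, with 15.1 CPM and 46.6 CPM, *Kdr* the most abundant in dermal fibroblasts (in chondrocytes *Kdr* and *Pecam1* had 70 counts each) and none at 0. The part of either cell type in the level of *S100a4* was not tested.

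*S100a6*, which codes for calcyclin and lies near *S100a4*, with *S100a5* between them, showed a smaller difference in the same direction. It had 7085 counts in chondrocytes (395 CPM) against 9630 in dermal fibroblasts (523 CPM) and was higher in dermal fibroblasts by 1.32-fold (interval 1.28 to 1.36). Per kb of exon, the level of *S100a4* was 0.427 times that of *S100a6* in chondrocytes (interval 0.408 to 0.447) and 1.27 times in dermal fibroblasts (interval 1.24 to 1.31). By exon length, *S100a4* was thus below *S100a6* in chondrocytes and above it in dermal fibroblasts, whereas per kb of coding sequence it was below in both. The gene of the calcyclin-binding protein, *Cacybp*, had 1156 counts in chondrocytes against 1223 in dermal fibroblasts, with a fold of 0.971 (interval 0.895 to 1.05).

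*S100a10* and *S100a11* code for proteins that bind annexins, S100A10 as the light chain of a complex with annexin A2 and S100A11 as a partner of annexin A1. *S100a10* had 2236 counts in chondrocytes (125 CPM) against 2562 in dermal fibroblasts (139 CPM) and was higher in dermal fibroblasts by 1.12-fold (interval 1.05 to 1.18). *S100a11* had 7826 counts (437 CPM) and 8764 counts (476 CPM) and was higher in dermal fibroblasts by 1.09-fold (interval 1.06 to 1.12). Both were near equal between the libraries, and relative to *Actb* the fold of *S100a11* was 0.998 in chondrocytes over dermal fibroblasts. A processed pseudogene of *S100a11* is known, and reads that both copies could take make its count uncertain. *Anxa2* had 20158 counts in chondrocytes against 20542 in dermal fibroblasts, with a fold of 1.01 (interval 0.988 to 1.03). Its level per kb of exon was 2.93 times that of *S100a10* in chondrocytes (interval 2.80 to 3.06) and 2.60 times in dermal fibroblasts (interval 2.50 to 2.71). *Anxa2* was thus above *S100a10* in both libraries, by slightly more in chondrocytes.

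Of the 12 annexin genes, 10 had at least 10 counts. In chondrocytes 2 were over 2-fold higher and in dermal fibroblasts none, beside 11.8% and 16.2% of all 14291 genes. By the whole interval, 1 was past 2-fold in chondrocytes. Their summed level was 2783 CPM in chondrocytes and 2740 CPM in dermal fibroblasts, with *Anxa2* the most abundant and *Anxa10* and *Anxa13* at 0 in both libraries. The ratio of these sums was 1.02, and it turned to 0.925 with total counts. *Anxa11*, whose protein binds S100A6, had 4940 counts in chondrocytes against 1097 in dermal fibroblasts and was 4.63-fold higher in chondrocytes (interval 4.33 to 4.94). *Anxa8* had 1184 and 553 counts and a log2 fold of 1.14. *Anxa11* was therefore the annexin that stood apart, and it was higher where *S100a6* was lower. Per kb of exon, the level of *Anxa11* was 0.122 times that of *S100a6* in chondrocytes and 0.0199 times in dermal fibroblasts. *Anxa1* had 3444 counts in chondrocytes against 6562 in dermal fibroblasts and was higher in dermal fibroblasts by 1.86-fold (interval 1.78 to 1.93), so that its level per kb was 0.0862 times that of *S100a11* in chondrocytes and 0.147 times in dermal fibroblasts.

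*S100a13*, whose protein takes part in the release of FGF1 from cells, had 327 counts in chondrocytes (18.2 CPM) against 329 in dermal fibroblasts (17.9 CPM). Its fold of 1.02 (interval 0.873 to 1.19) was the only one of the 10 whose interval held equality, and its direction turned with total counts. *Fgf1* itself had 16 counts in each library. *S100a16*, a widely expressed member, had 399 counts in chondrocytes (22.3 CPM) against 534 in dermal fibroblasts (29.0 CPM) and was higher in dermal fibroblasts by 1.30-fold (interval 1.14 to 1.49). Per kb of exon, *S100a13* and *S100a16* held ranks 7 and 8 of the 10 genes in chondrocytes and ranks 5 and 6 in dermal fibroblasts. Both differed little between the libraries.

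The remaining members had few reads. *S100a8*, which codes for a subunit of calprotectin, a protein abundant in neutrophils, had 21 counts in chondrocytes (1.17 CPM) against 5 in dermal fibroblasts (0.272 CPM), with a fold of 4.31 (interval 1.58 to 14.6), or 2.16 with a floor of 10 counts. *S100a9*, the gene of the other subunit, had 27 and 6 counts, with a fold of 4.62 (interval 1.87 to 13.7). Per kb of exon, the level of *S100a9* was 0.966 times that of *S100a8* in chondrocytes and 0.901 times in dermal fibroblasts, and the intervals of both ratios held equality. At this depth the levels of the calprotectin pair could not be told apart within a library. Both genes had higher values in chondrocytes, with intervals that reached below 2-fold.

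Some neutrophil markers differed in the same direction as this pair. Of 14 neutrophil markers, 6 were over 2-fold higher in chondrocytes and 2 in dermal fibroblasts, with a summed level of 73.5 CPM in chondrocytes and 48.3 CPM in dermal fibroblasts. The most abundant in chondrocytes, *Lcn2*, had 884 counts in chondrocytes against 9 in dermal fibroblasts, and without it the summed level was 24.2 CPM in chondrocytes and 47.8 CPM in dermal fibroblasts. *Ngp* had 27 counts in chondrocytes against 0 in dermal fibroblasts, at least 9.24-fold higher against a floor of 3 counts (interval from 7.02), and *Ltf* had 16 and 0, at least 5.48-fold higher (interval from 3.96). These bounds against the floor leave out counting error, so an interval can start below them. *Retnlg* was also at 0 in dermal fibroblasts, with 1 count in chondrocytes. *Camp* (17 counts against 4), *Mpo* (15 against 1) and *Csf3r* (13 against 1) were on the same side. *Lcn2* and *Mmp9* are also known from cartilage cells. In contrast to *Lcn2*, *Mmp9*, the most abundant in dermal fibroblasts, had 101 counts in chondrocytes against 468 in dermal fibroblasts. Besides *Mmp9*, *Mmp8* was over 2-fold higher in dermal fibroblasts, with 26 and 82 counts, by 3.07-fold (interval 1.95 to 4.97). *Itgb2* (128 against 219), *Ptprc* (50 against 76) and *Prtn3* (7 against 11) also had higher values there. *Cxcr2* (29 against 15) had a higher value in chondrocytes. Over the 12 markers of the list with at least 10 counts, the median log2 fold was 1.56, beside -0.0035 over all 14291 genes. This median leaves out *Elane* and *Retnlg*, which had fewer counts and lay near equality, and its members lay on both sides. The part of neutrophils in the levels of *S100a8* and *S100a9* was not tested.

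*S100a3*, a gene known from the hair cuticle, had 7 counts in chondrocytes (0.391 CPM) against 23 in dermal fibroblasts (1.25 CPM) and was higher in dermal fibroblasts by 3.20-fold (interval 1.33 to 8.83). Its annotated span holds *S100a2*, so its count is uncertain. *S100a14*, an epithelial member outside the 10 genes, had 2 counts in chondrocytes against 93 in dermal fibroblasts, a ratio of 45.3 in favour of dermal fibroblasts taken without the floor of 3 counts (interval 12.2 to 379). Keratinocyte markers stood the same way. Of 10, 8 were over 2-fold higher in dermal fibroblasts, with 16.8 CPM in chondrocytes and 301 CPM in dermal fibroblasts, *Perp* the most abundant in chondrocytes (125 counts against 283), *Krt14* in dermal fibroblasts (17 against 1939), and none at 0. Their part in the levels of *S100a3* and *S100a14* was not tested. Of the other family genes, *S100a7a* had 9 and 4 counts, *S100a5* had 2 and 0, *S100a2* had 1 and 0, *S100g* had 1 and 2, and *S100z* had 0 in both. Of the 7 S100 genes outside the 10, 2 were over 2-fold higher in chondrocytes (*S100a9* and *S100a7a*) and 1 in dermal fibroblasts (*S100a14*), and only *S100a9* and *S100a14* had at least 10 counts. *S100pbp*, which codes for an S100-binding protein and not an S100 protein, had 235 counts in chondrocytes against 307 in dermal fibroblasts, with a fold of 0.786 (interval 0.661 to 0.935).

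Secreted S100 proteins are bound by several surface receptors. Of 6 such receptor genes, all had at least 10 counts. In dermal fibroblasts 1 was over 2-fold higher and in chondrocytes none, beside 16.2% and 11.8% of all 14291 genes. The receptor genes had a summed level of 857 CPM in chondrocytes and 703 CPM in dermal fibroblasts. Without *Bsg* the direction of the sum turned, with 151.4 CPM in chondrocytes and 229 CPM in dermal fibroblasts. *Bsg*, which codes for basigin, was the most abundant, with 12649 counts in chondrocytes against 8730 in dermal fibroblasts and a fold of 1.49 (interval 1.45 to 1.53). *Mcam* had 482 and 1204 counts and was higher in dermal fibroblasts by 2.43-fold (interval 2.19 to 2.71). *Tlr4* had 322 counts in chondrocytes and 315 in the fibroblast library, with a fold of 1.05 (interval 0.896 to 1.23). *Ager*, which codes for the receptor RAGE, had 19 counts in each, and its interval from 0.515 to 2.05 leaves differences of up to about 2-fold undetectable at this depth.

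Of 26 genes of intracellular S100 partners in the table, 23 had at least 10 counts, 2 were over 2-fold higher in chondrocytes and 7 in dermal fibroblasts, beside 11.8% and 16.2% of all 14291 genes. Of the 7, *Il1a* had fewer than 10 counts (3 against 7), and 5 were past 2-fold by the whole interval. The 26 genes had a summed level of 2885 CPM in chondrocytes and 4152 CPM in dermal fibroblasts, with *Myh9* the most abundant. The 2 on the chondrocyte side were *Myh14* and *Plb1*. *Plb1*, a phospholipase gene with 80 counts against 2, had been entered in place of phospholamban, and without it 1 of 25 was over 2-fold higher in chondrocytes. The partners of S100A4 among the myosins differed from each other. *Myh9* had 17704 counts in chondrocytes against 30928 in dermal fibroblasts and was higher in dermal fibroblasts by 1.70-fold (interval 1.67 to 1.73), *Myh10* had 3003 and 2603, with a fold of 1.18 (interval 1.12 to 1.25), and *Myh14* had 330 and 19, with a fold of 17.8 (interval 11.2 to 30.0). *Myh9* was thus the abundant myosin on the side of *S100a4*. *Ahnak*, whose protein is bound by the complex of S100A10 and annexin A2, had 6710 counts in chondrocytes against 15544 in dermal fibroblasts and was higher in dermal fibroblasts by 2.26-fold (interval 2.19 to 2.32). *Plat*, which codes for the tissue plasminogen activator that S100A10 binds at the cell surface, had 182 and 1514 counts and was higher in dermal fibroblasts by 8.10-fold (interval 6.94 to 9.50). *Stk38*, a kinase gene whose protein S100B binds, had 950 and 2158 counts and was higher in dermal fibroblasts by 2.21-fold (interval 2.05 to 2.39). The partner genes *Ahnak*, *Plat* and *Stk38* were therefore higher in dermal fibroblasts although *S100a10* was near equal and *S100b* was higher in chondrocytes. *Trp53*, whose protein several S100 proteins bind, had 3191 and 2292 counts, with a fold of 1.43 (interval 1.35 to 1.51). Among the channel genes, *Trpv6* had 0 counts in chondrocytes against 21 in dermal fibroblasts, *Ryr2* had 0 and 10, and *Trpv5* was at 0 in both.

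**Figure D3:**
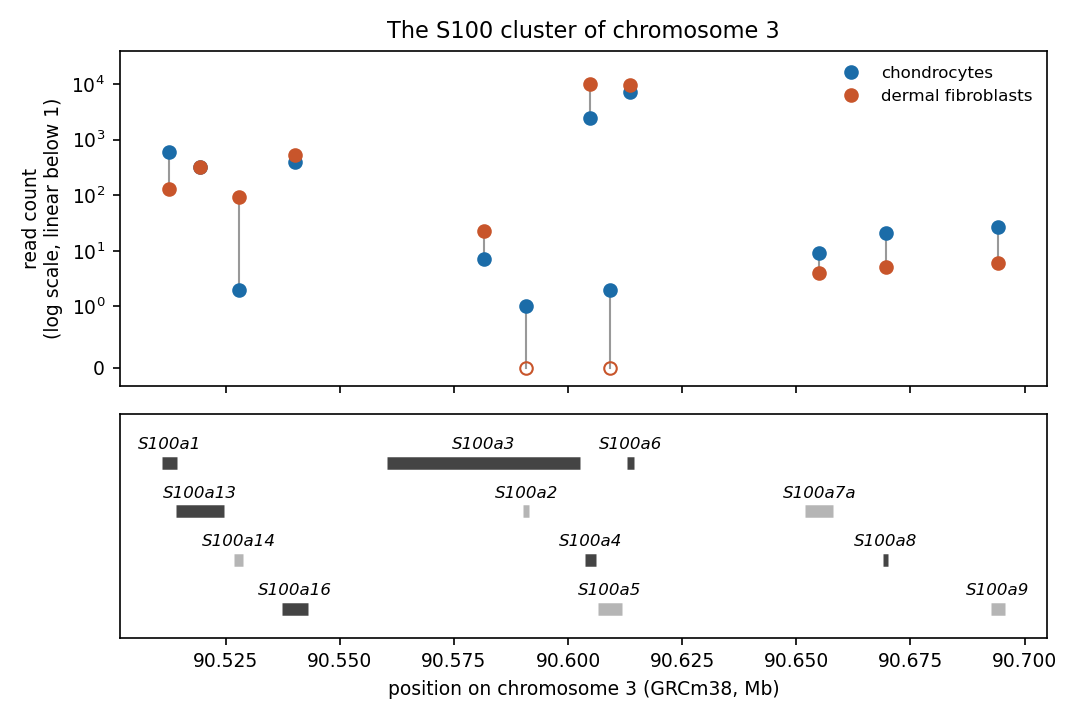
Read counts of the S100 genes on chromosome 3 between *S100a1* and *S100a9* in each library (upper panel, log scale that is linear below 1, open circles at 0) above the annotated gene spans in GRCm38 (lower panel, dark for the 10 genes and light for the others). *S100a4* and *S100a6* carry 2472 and 7085 counts in chondrocytes and 10019 and 9630 in dermal fibroblasts, while *S100a5*, annotated between them, has 2 and 0.

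Of the 10 genes, 9 lie on chromosome 3, in 2 blocks. From *S100a1* to *S100a9* (chr3:90511034-90695721 in GRCm38) the table held 12 protein-coding genes, with *S100a1* and *S100a13* at one end and *S100a8* and *S100a9* at the other. *S100a11* and *S100a10* form a separate block (chr3:93520496-93564645). By position in the first block, *S100a1* (4.87-fold higher in chondrocytes) and *S100a13* (a fold of 1.02) were followed by *S100a14*, *S100a16*, *S100a3*, *S100a4* and *S100a6*, which were each lower in chondrocytes under all scalings. *S100a2* and *S100a5*, annotated among these 5 genes, were at or below 2 counts in both libraries. *S100a7a*, *S100a8* and *S100a9* at the far end had higher values in chondrocytes, with an interval that held equality for *S100a7a* (0.645 to 10.3). Whether the position bears on the direction was not tested. Outside the first block, *Chtop* had 2415 counts in chondrocytes against 2343 in dermal fibroblasts, a fold of 1.06, and *Pglyrp4* was at 0 in both. Beside the second block, *Tchhl1* had 1 count in each library and *Tdpoz2* was at 0 in both.

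*S100a1* (chr3:90511034-90514330, minus strand) and *S100a13* (chr3:90514233-90524581, plus strand) are divergent neighbours whose annotated spans overlap by 98 bp. Since the strand setting of the counting is not given in the sources used here, reads from the overlap cannot be told apart and both counts are uncertain to that extent. Per kb of exon, the level of *S100a1* was 1.90 times that of *S100a13* in chondrocytes (interval 1.66 to 2.18) and 0.398 times in dermal fibroblasts (interval 0.321 to 0.490). The order of this pair was therefore reversed between the libraries too, with *S100a13* near equal in both. The RefSeq promoter table lists a start for *S100a1* at 90514330 and a start for *S100a13* at 90514435, with 104 bases between them. These bases (chr3:90514331-90514434, GRCm38.p6, plus strand, 58.65% G and C) are shown because these listed starts, of genes of unequal fold, lie on each side of them. The annotated span of *S100a13* begins at 90514233, so the bases lie inside that span and are not intergenic. Capitals mark their 3 CpG.
S100a1 to S100a13: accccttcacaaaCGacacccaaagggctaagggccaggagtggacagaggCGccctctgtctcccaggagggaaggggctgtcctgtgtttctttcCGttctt

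Promoter windows of 250 bases before each RefSeq start were searched for the letters ACAAAG and ACAATG, cores that SOX proteins bind, and for TATAAA, the TATA box, on both strands. No matches in the windows of the 10 genes overlapped each other. Of the 10 genes, 9 had a window, and *S100a10* had none. Over 32851 RefSeq promoter windows of this length, 16.5% held ACAAAG, 10.7% held ACAATG and 12.4% held TATAAA. *S100a4* and *S100a8* each held TATAAA on the plus strand, at positions -31 to -26 and -30 to -25 from the start, and 7.59% of all windows held it on the gene's own strand. A window of *S100a3* held TATAAA and another ACAAAG, and a window of *S100a16* held ACAATG on the minus strand. None of the 3 motifs was in the windows of *S100a1*, *S100a6*, *S100a11*, *S100a13* and *S100b*, which says only that these letters are not in these windows. The windows of the members with the largest fold in each direction among those with at least 1000 counts are shown, *S100b* (chr10:76253586-76253835, plus strand) and *S100a4* (chr3:90603520-90603769, plus strand), both of GRCm38.p6 from RefSeq, 5′ to 3′, with TATAAA in capitals.
S100b: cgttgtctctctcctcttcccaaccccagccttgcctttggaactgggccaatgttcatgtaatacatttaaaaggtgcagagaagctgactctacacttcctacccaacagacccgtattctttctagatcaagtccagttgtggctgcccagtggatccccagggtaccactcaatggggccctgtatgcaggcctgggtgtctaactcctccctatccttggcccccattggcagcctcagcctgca
S100a4: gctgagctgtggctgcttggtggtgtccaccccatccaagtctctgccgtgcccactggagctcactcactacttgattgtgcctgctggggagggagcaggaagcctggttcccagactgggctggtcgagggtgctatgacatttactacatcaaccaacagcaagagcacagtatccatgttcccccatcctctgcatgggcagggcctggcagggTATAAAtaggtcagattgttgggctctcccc

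The windows also differed in CpG. The *S100a13* window held 13 CpG, that of *S100a11* held 11 and that of *S100a1* held 8, against a median of 6 over all 32851 windows. The windows of the other 6 members held 0 to 5. The windows of *S100b* and *S100a4* held 2 each, so that windows alike in CpG belonged to genes of opposite direction.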

How the data were processed

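RNA-Seq counts of 1 chondrocyte and 1 dermal fibroblast library were used. The authors prepared stranded mRNA libraries, sequenced them as 75 bp single-end reads, mapped these to mm10 and deposited whole-number counts per gene symbol, not scaled. The submitters' processing notes name CASAVA 1.8.2, TopHat2 2.0.13, Bowtie2 2.2.3 and SAMtools 0.1.19. The counting program, its annotation and strand setting are not given in the sources used here.

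The S100 genes and all lists were chosen with earlier results of these data known. Counts were scaled with TMM factors of 0.954 (chondrocytes) and 1.05 (dermal fibroblasts) from edgeR 4.0.16 (R 4.3.3). Before a fold was taken, counts under 3 were set to 3, except where a ratio is said to be without this floor. Alternatives were total counts, DESeq2 1.42.0 factors, the upper quartile, totals without the 10 most abundant genes, *Actb*, other floors and thresholds, and coding length. Lengths came from GENCODE vM1 (92.2% of the 14291 genes with at least 10 counts), positions and promoters from RefSeq (GRCm38.p6). Calculations used Python 3.11.15, numpy 2.4.6, pandas 2.3.3 and scipy 1.17.1, and figures matplotlib 3.10.9. The folds and intervals were tested on simulated Poisson counts of well-counted genes, scaled by total counts. That test did not cover TMM, the floor or genes with few counts. Genes that could be named were the S100 genes, annexins and partners with at least 10 counts, the 3 most abundant or any absent members of other lists, genes of nearest fold and flanking genes. Other genes were named after their values were seen. Protein features were not analysed here.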

Additional observations from a re-analysis of the deposited data

How the results depend on the processing

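No paired analysis was possible because either cell type was represented by a single library. Of 80 folds of the 10 genes recomputed with other scalings, floors or an added count, 70 stayed within their counting interval, 10 moved beyond it and none reversed, although *S100a13*, whose interval holds equality, crossed it with total counts. These 10 moves came from the scaling. Within its interval, *S100a8* fell from 4.31 to 2.16 with a floor of 10 counts. With total counts the folds of chondrocytes over dermal fibroblasts were 0.231 for *S100a4*, 0.688 for *S100a6*, 0.816 for *S100a10* and 0.835 for *S100a11*. Relative to *Actb* they were 0.276, 0.823, 0.976 and 0.998 in the same order, and without the 10 most abundant genes 0.780 for *S100a6* and 0.947 for *S100a11*. Against TMM, total counts shifted all log2 folds by -0.14 and *Actb* by 0.12. With a fold over 4, 0 of the 10 genes were higher in dermal fibroblasts, and with the whole interval past 2-fold, 1. Over all genes, 1684 were over 2-fold higher in chondrocytes, 713 over 4-fold, 1031 by the whole interval, 981 with at least 100 counts and 366 with at least 1000. In dermal fibroblasts there were 2319, 929 over 4-fold, 1485 with at least 100 counts and 588 with at least 1000. Of 242 list values, 198 held, 41 moved and 3 changed their count past 2-fold by over 1.5 times: with total counts, 1 annexin (*Anxa1*) was higher in dermal fibroblasts and 0 glial markers were higher in chondrocytes, and without *Plb1*, an alternative chosen after seeing the data like the sums without *S100a4* or a list's most abundant gene and the ratios per coding length, 1 partner was higher in chondrocytes. Depth limits *S100a8* and *S100a3*, with at most 23 counts in a library. Coding length is shorter than exon length for each of the 10 genes, so it had to raise every level. Of 20 levels, 18 rose past their counting interval, which is no check of the levels.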

Other observations

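The other EF-hand calcium sensors, which share the calcium-binding fold of the S100 proteins, were past 2-fold about as often as all genes. Of 33 genes, 28 had at least 10 counts, 5 were over 2-fold higher in chondrocytes and 5 in dermal fibroblasts, beside 11.8% and 16.2% of all 14291 genes with at least 10 counts, and 2 of the 5 in chondrocytes (*Pvalb* and *Ocm*) had fewer than 10 counts. The list had a summed level of 11304 CPM in chondrocytes and 11467 CPM in dermal fibroblasts, a ratio of 0.986 that turned to 1.01 with the upper quartile, 1.02 without the 10 most abundant genes and 1.07 relative to *Actb*. *Sparc*, a secreted matrix protein gene, was the most abundant, with 120019 counts in chondrocytes against 115617 in dermal fibroblasts and a fold of 1.07 (interval 1.06 to 1.07). *Calu*, which codes for calumenin of the secretory pathway, had 21782 and 22450 counts, and *Nucb1* had 8230 and 9356, so that these abundant sensors lay near equality. *Calb1* was at 0 in both libraries, and *Pvalb* and *Ocm*, genes of the parvalbumins, had 7 counts each in chondrocytes and 0 in dermal fibroblasts, at least 2.40-fold higher against a floor of 3 counts with an interval from 1.48. *Calb2* had 2 counts in chondrocytes against 0 in dermal fibroblasts. *Calml3*, a calmodulin-like gene named after its value was seen, had 190 counts in chondrocytes against 8 in dermal fibroblasts and was 24.4-fold higher in chondrocytes (interval 12.1 to 57.3).

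Of 8 markers of hypertrophic chondrocytes, 6 were over 2-fold higher in chondrocytes and none in dermal fibroblasts, with a summed level of 1445 CPM in chondrocytes and 339 CPM in dermal fibroblasts. By counts, *Col10a1* was the most abundant in chondrocytes, with 10378 counts against 3 in dermal fibroblasts. *Spp1* was the most abundant in dermal fibroblasts, with 3413 counts there against 9639 in chondrocytes. Per kb of exon, *Spp1* stood above *Col10a1* in chondrocytes too (326 against 185 CPM per kb). None of the 8 markers was at 0 in either library. Whether *S100b* and *S100a1* differ between resting, proliferating and hypertrophic cells was not tested.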
